A study of Homo sapiens with 2 samples.

Results

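The 41 genes described here encode the machinery of DNA replication and S phase. They were taken by name from a list, with no threshold on a measured value, and all 41 were found among the 38606 genes of the matrix. They were followed in human mesenchymal stem cells, an adherent stromal cell population that came from adipose tissue and was bought commercially. Cells were grown to 90% confluence and starved overnight. They were then left untreated or given TGFB1, a cytokine that activates SMAD transcription factors and drives fibroblast contraction and matrix synthesis, at 10 ng/mL for 24 h, and both dishes were read by 10x single-cell RNA sequencing. The starvation was thus shared by both groups, the labels do not give the number of donors, and each group is 1 library.

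Replication starts from origins that are licensed in G1 phase, when ORC, CDC6 and CDT1 load the ring-shaped MCM helicase onto DNA. In S phase CDC45 and the GINS complex switch the helicase on, polymerases copy both strands with the sliding clamp PCNA, and ribonucleotide reductase, thymidylate synthase and thymidine kinase supply nucleotides. Many of these genes are switched on together before S phase by E2F transcription factors once the retinoblastoma protein is phosphorylated. Genes of G2 and M phase come on later, largely under the DREAM and MuvB complexes. TGFB1 is known for arresting many cell types in G1 phase.

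The untreated library held 8101 cells with a median of 19249 UMIs (unique molecular identifiers, 1 per captured RNA molecule), and the TGFB1 library held 12555 cells with a median of 15134. All 10 stromal markers were at 5 CPM or more in both libraries, with a sum of 20272 CPM untreated and 22708 CPM with TGFB1, where CPM is the UMIs of a gene scaled to a common total of the library or cluster (counts per 1e6 UMIs). No endothelial, leukocyte, adipocyte, mural or melanocyte marker reached 5 CPM in a whole library. Of 5 epithelial markers only KRT18 did, at 35.1 CPM untreated and 80.2 CPM with TGFB1. The highest mural value came close, at 4.84 CPM untreated and 4.98 CPM with TGFB1, and a small group of cells can be missed in such sums. The cells carry the depositors' cluster numbers. Cluster 6 held 842 untreated cells and cluster 8 held 348 TGFB1 cells, and in these clusters the 35 genes of a fixed G2 and M phase list (MKI67, TOP2A, CDK1 and others) summed to 5070 and 3986 CPM, against 77.0 to 238 CPM in every other cluster of at least 50 cells. They are called the cycling clusters here. The split was not complete, since 21 TGFB1 cells were in cluster 6 and 30 untreated cells, with a median of 1956 UMIs, were in cluster 8. The barcodes of 18 cells occurred in both libraries.

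With 1 library per group there was no test. Every interval below is a 95% interval for counting error only, so it describes these 2 libraries rather than the treatment. A gene was counted as lower or higher when it differed by 1.5-fold or more, and the counts are set beside the same share over all genes at 5 CPM or more.

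Of the 41 genes, 34 had a promoter in the RefSeq table (GRCh38.p14), given as 250 bases before and 50 bases after the annotated start. A stretch fitting an E2F site (TTTCCCGC, TTTGGCGC, TTTCGCGC or TTTGCCGC, on either strand) lay in 16 of these 34 promoters, or 47.1%, and in 3.33% of all 27305 promoters of the same length. The 250 bases before the start are given for 4 genes, read on the strand of the gene, with E2F matches and matches to the CHR element of G2 and M phase promoters (TTTGAA or TTCGAA, either strand) in capitals. TYMS had the largest difference between the libraries, and MCM6, POLA1 and GMNN were among the smallest.
TYMS, chr18:657403-657652, plus strand: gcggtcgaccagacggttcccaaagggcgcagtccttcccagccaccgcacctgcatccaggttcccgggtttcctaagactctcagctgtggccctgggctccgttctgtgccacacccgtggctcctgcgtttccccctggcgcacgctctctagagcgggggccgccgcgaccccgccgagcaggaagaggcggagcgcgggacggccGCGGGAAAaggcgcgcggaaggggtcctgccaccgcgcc
MCM6, chr2:135876444-135876693, minus strand: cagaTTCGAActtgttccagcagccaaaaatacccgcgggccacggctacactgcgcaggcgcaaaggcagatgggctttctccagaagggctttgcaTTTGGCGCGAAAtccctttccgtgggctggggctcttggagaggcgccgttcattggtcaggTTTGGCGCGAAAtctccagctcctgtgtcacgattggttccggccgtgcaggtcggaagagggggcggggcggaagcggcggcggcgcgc
POLA1, chrX:24693668-24693917, plus strand: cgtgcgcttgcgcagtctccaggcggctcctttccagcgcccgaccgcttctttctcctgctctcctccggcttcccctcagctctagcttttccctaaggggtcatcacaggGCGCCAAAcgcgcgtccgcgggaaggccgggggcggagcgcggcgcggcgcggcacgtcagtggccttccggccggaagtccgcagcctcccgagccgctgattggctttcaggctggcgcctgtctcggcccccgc
GMNN, chr6:24774687-24774936, plus strand: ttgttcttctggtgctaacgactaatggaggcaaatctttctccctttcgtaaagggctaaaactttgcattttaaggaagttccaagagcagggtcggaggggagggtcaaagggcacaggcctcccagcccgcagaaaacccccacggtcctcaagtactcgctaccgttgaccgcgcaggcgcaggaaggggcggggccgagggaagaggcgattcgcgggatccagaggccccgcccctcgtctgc

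TYMS and POLA1 each held 1 E2F match in this stretch, MCM6 held 4, in pairs that overlap each other, and 1 CHR match, and GMNN held none. In the whole windows the 16 promoters carried 24 E2F matches, and 16 of these 24 began within 60 bases before the start or after it. The pair in MCM2 lay just after the start and is not shown. The CHR element lay in 2 of 34 promoters (5.88%, against 16.6% of all), the CCAAT box in 23 (67.6% against 35.7%), the GC box GGGCGG in 27 (79.4% against 44.6%) and the SMAD-binding letters CAGAC in 14 (41.2% against 44.95%). Of the 16 genes with an E2F match, 13 were lower in the TGFB1 library, with a median log2 ratio of -1.05. Of the 18 without, 11 were lower, with a median of -0.75. Among all 10928 genes at 5 CPM or more, 14.2% were lower and 8.45% higher. The match is a description of letters. The 4 genes shown were picked by the size of their difference, so they cannot show whether it goes with the match.

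In the whole libraries 29 of the 41 genes were lower with TGFB1, none was higher and 12 lay within 1.5-fold. Over all 10928 genes tested 14.2% were lower and 8.45% were higher. The median log2 ratio of TGFB1 to untreated was -1.02 over the 41 genes, with a range of -2.27 to 0.11, and -0.10 over all genes tested. Of the 41 genes 16 stayed under 5 CPM in both libraries, and among the 25 above it 15 were lower. Scaling by TMM or by the median of ratios raised every log2 ratio by 0.15 or 0.19, which left 26 of the 41 genes lower under each. The split over all genes moved more, from 1551 lower and 923 higher to 1092 and 1280 under TMM and to 1010 and 1396 under the median of ratios.

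**Figure D1:**
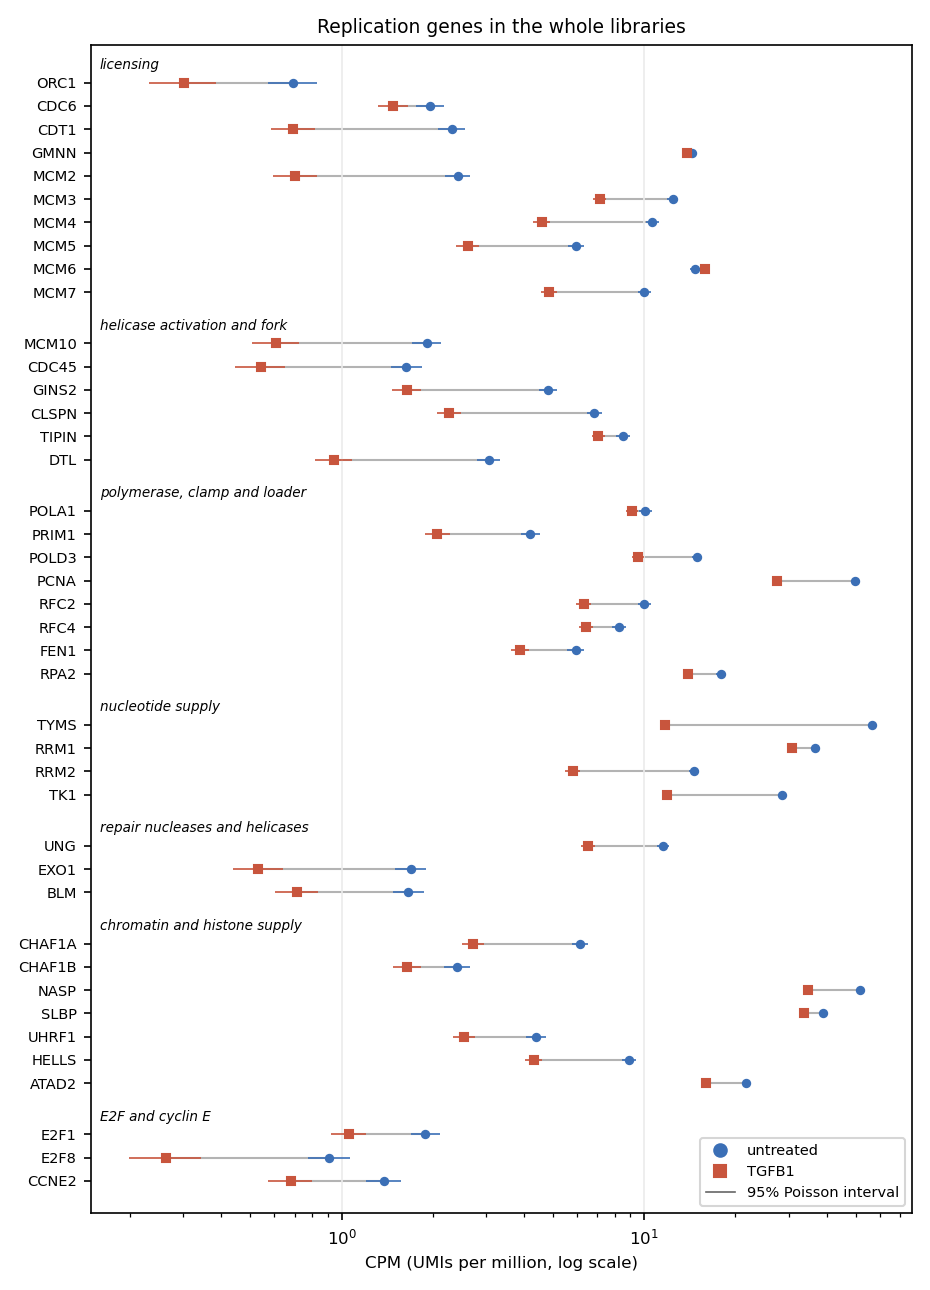
CPM of the 41 replication genes in the untreated (circles) and TGFB1 (squares) libraries on a log axis, grouped by role, with 95% Poisson intervals for counting error. The TGFB1 point lies left of the untreated point by 1.5-fold or more for 29 genes, most widely for TYMS, and the points of MCM6, GMNN and POLA1 nearly coincide.

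Among the licensing genes 7 of 10 were lower. CDT1, which brings the MCM ring to the origin, was at 2.31 CPM untreated and at 0.694 CPM with TGFB1 and so 3.33-fold lower (2.75 to 4.06). ORC1, the large subunit of the origin recognition complex, was 2.30-fold lower (1.68 to 3.17). CDC6, the loading ATPase, differed by 1.32-fold, from 1.96 to 1.48 CPM. The subunits of the ring, which act as a complex of 6 proteins, did not differ alike. MCM2 was at 2.42 and 0.703 CPM, 3.44-fold lower (2.84 to 4.18). MCM4, MCM5 and MCM7 were 2.32-, 2.28- and 2.06-fold lower, and MCM3 was 1.75-fold lower. MCM6 was instead at 14.7 CPM untreated and 15.9 CPM with TGFB1, a ratio of TGFB1 to untreated of 1.08 (1.02 to 1.14). Geminin (GMNN), the inhibitor of CDT1, was at 14.3 and 13.9 CPM, a ratio of 0.969 (0.917 to 1.02). The inhibitor was thus nearly level between the libraries while its target CDT1 was lower, and under TMM the GMNN ratio lay on the other side of 1, at 1.08.

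At the fork 5 of 6 genes were lower. DTL, an E3 ligase adaptor that marks CDT1 for destruction on chromatin in S phase, was at 3.07 CPM untreated and at 0.943 CPM with TGFB1, 3.26-fold lower (2.76 to 3.86). MCM10, CDC45 and GINS2, which activate the helicase, were 3.14-, 3.03- and 2.94-fold lower. Claspin (CLSPN), which couples the fork to checkpoint kinase signalling, was 3.01-fold lower (2.70 to 3.35). These 5 genes therefore differed by 2.94- to 3.26-fold. TIPIN, a partner of TIMELESS in fork protection, was at 8.50 and 7.06 CPM, a 1.205-fold difference.

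The copying machinery differed less, with 5 of 8 genes lower, and only 2 of 8 under either other scaling. PCNA was at 49.6 CPM untreated and at 27.4 CPM with TGFB1, 1.81-fold lower (1.75 to 1.87). The primase subunit PRIM1 was 2.03-fold lower (1.80 to 2.29), whereas POLA1, the polymerase in the same complex, was at 10.1 and 9.10 CPM, a 1.11-fold difference (1.04 to 1.18). The clamp loader subunit RFC2, the polymerase delta subunit POLD3 and the flap endonuclease FEN1 were 1.59-, 1.56- and 1.53-fold lower, all close to the limit. RFC4 and the single-strand binding protein RPA2 each differed by 1.28-fold.

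Nucleotide supply held the widest difference of all 41 genes. Thymidylate synthase (TYMS), which makes dTMP for DNA, was at 56.5 CPM untreated and at 11.7 CPM with TGFB1, 4.83-fold lower (4.62 to 5.05). ENOSF1, which overlaps TYMS on the opposite strand by 719 exon bases, was at 29.4 and 17.9 CPM, and whether strand was used in counting is not given here, so reads of the pair cannot be told apart. The divergent transcript TYMSOS was at 6.73 and 1.41 CPM. The ribonucleotide reductase subunits differed from each other: RRM2, the subunit made in S phase, was at 14.6 and 5.81 CPM, 2.51-fold lower (2.34 to 2.69). RRM1, the catalytic subunit, whose protein is stable through the cell cycle, was at 36.5 and 30.8 CPM, a 1.19-fold difference (1.15 to 1.23). Thymidine kinase TK1, the salvage enzyme, was at 28.6 and 11.9 CPM, 2.40-fold lower (2.28 to 2.52).

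All 3 repair genes were lower. The exonuclease EXO1 was 3.20-fold lower (2.56 to 4.02), from 1.70 to 0.531 CPM. BLM, a helicase that unwinds recombination intermediates, was 2.33-fold lower (1.91 to 2.86). UNG, which removes uracil from DNA, was 1.77-fold lower (1.65 to 1.90). Of the chromatin and histone supply genes 3 of 7 were lower. CHAF1A, a subunit of the CAF-1 histone chaperone, was 2.26-fold lower (2.04 to 2.51), and its partner CHAF1B 1.46-fold (1.26 to 1.69). The remodeller HELLS and the maintenance methylation factor UHRF1 were 2.07- and 1.73-fold lower. The histone chaperone NASP, the bromodomain ATPase ATAD2 and the histone mRNA binding protein SLBP lay within the limit, at 1.48-, 1.36- and 1.16-fold. Of the regulators, E2F8, a repressor that S phase cells make, was 3.46-fold lower (2.53 to 4.80) on 154 and 55 UMIs. CCNE2 was 2.03-fold lower (1.64 to 2.52), on 233 and 142 UMIs, and overlaps INTS8 (16.0 and 11.9 CPM) on the opposite strand by 1628 exon bases. E2F1, an activator of these genes, was 1.79-fold lower (1.504 to 2.14).

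These library values mix the number of cycling cells with the level in them. Cluster 6 held 10.4% of untreated cells (9.74 to 11.1) and cluster 8 held 2.77% of TGFB1 cells (2.49 to 3.07), or 12.0% and 3.97% of UMIs. The clusters were made from all genes, these 41 included, so this share is a description. A share from the 35 G2 and M phase genes, none of them a member, does not use the 41 genes. After each cell was thinned to 7500 UMIs, 19.2% of 7646 untreated cells (18.3 to 20.1) and 9.66% of 9330 TGFB1 cells (9.06 to 10.3) had at least 3 UMIs of these genes, and 455 and 3225 shallower cells were left out. Unthinned, the shares were 50.9% and 26.2%. Of the thinned cells with at least 3 such UMIs, 53.2% untreated and 34.5% with TGFB1 lay in the cycling cluster. This class thus held many cells from outside the clusters. Both ways of counting gave the larger share in the untreated library.

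Replication genes were also lower in the summed UMIs of the cycling clusters. Such a sum mixes the share of cells in S phase with the level in each of them. Which of these differed was not tested. The 41 genes summed to 1844 CPM (1826 to 1863) in untreated cells of cluster 6 and to 1026 CPM (1005 to 1048) in TGFB1 cells of cluster 8, or 44.5 and 24.5 UMIs per cell, at median depths of 21262 and 21092 UMIs. Of the 41 genes 27 were lower, against 14.9% of 11129 genes, and none was higher, against 8.46%. Of the 40 at 5 CPM or more 26 were lower. The median log2 ratio was -0.86, with a range of -1.73 to -0.15, and -0.07 over all genes. Of the 35 G2 and M phase genes 5 were lower in the same cells (TOP2A, CDK1, CDC20, NUSAP1 and CDCA3), with a median of -0.31. All 35 were lower in the whole libraries, with a median of -1.44. The cycling clusters were named by the high sum of these 35 genes, so their values there, and ratios to them, are a description only. The ratio of summed UMIs of the 41 genes to those of the G2 and M phase genes was 0.364 (0.359 to 0.368) in untreated and 0.258 (0.251 to 0.264) in TGFB1 cycling cells.

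The 21 TGFB1 cells of cluster 6 bear on this. They carried 1469 UMIs of the 41 genes, or 2878 CPM (2733 to 3029), more than either cycling cluster, and 4016 CPM of the G2 and M phase genes. The 30 untreated cells of cluster 8 carried 100 UMIs. With clusters 6 and 8 joined in each library, 23 of the 41 genes were lower, against 14.0% of 11105 genes, and none was higher, against 8.29%. The median log2 ratio was then -0.67, and the ratio to G2 and M phase UMIs was 0.364 untreated and 0.284 with TGFB1. The direction was the same in both readings, and the difference was smaller with these cells included.

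Within the cycling clusters the widest differences were in the MCM ring, TYMS, PCNA and cyclin E2. MCM2 was at 12.0 CPM in untreated and 3.61 CPM in TGFB1 cycling cells, 3.31-fold lower (2.26 to 5.01), and 2.56-fold lower with both clusters joined. TYMS was at 307 and 95.5 CPM, 3.22-fold lower (2.99 to 3.47), and 2.93-fold with both joined. CCNE2, which drives entry into S phase with CDK2, was at 7.97 and 2.53 CPM, 3.15-fold lower (1.99 to 5.23) on 162 and 21 UMIs, and 2.12-fold with both joined. PCNA followed at 145 and 51.5 CPM, 2.81-fold lower (2.53 to 3.11). This exceeded its 1.81-fold difference between whole libraries. MCM5, MCM4, MCM3 and MCM7 were 2.65-, 2.46-, 2.25- and 1.90-fold lower, and MCM6 differed by 1.48-fold (1.24 to 1.77), from 28.7 to 19.4 CPM. MCM6 was thus below its untreated level in cycling cells, although it was not in the whole library. The licensing genes CDT1 and ORC1 were 2.19- and 2.22-fold lower, and CDC6, at 12.5 and 8.07 CPM, was 1.55-fold lower (1.18 to 2.06) but 1.14-fold with both clusters joined.

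Several genes whose UMIs came mostly from cycling cells were closer to level in the cycling clusters than in the libraries. RRM2 was at 109 CPM in untreated and 79.7 CPM in TGFB1 cycling cells, a 1.37-fold difference (1.26 to 1.496), against 2.51-fold between libraries. CDC45 differed by 1.48-fold (1.13 to 1.95) and BLM by 1.43-fold (1.09 to 1.89), against 3.03- and 2.33-fold between libraries. The smallest differences in cycling cells were those of GMNN, at 49.1 and 44.3 CPM (1.11-fold, 0.982 to 1.25), TIPIN (1.24-fold, 0.997 to 1.56), FEN1 (1.28-fold, 1.09 to 1.51) and RRM1 (1.29-fold, 1.18 to 1.40). The intervals of GMNN and TIPIN included no difference. GINS2, EXO1, PRIM1 and POLD3, which had 122, 46, 67 and 117 UMIs in TGFB1 cycling cells, were 2.05-, 2.06-, 2.03- and 2.15-fold lower there. With both clusters joined their differences were smaller. GINS2 was then at 30.1 and 16.3 CPM, EXO1 at 11.4 and 7.03, PRIM1 at 16.4 and 9.98, and POLD3 at 30.3 and 16.3. The copying machinery and the fork genes, which differed unlike in the whole libraries, had near medians in the cycling clusters, at log2 ratios of -0.76 and -0.78. With both clusters joined these medians lay further apart, at -0.65 and -0.54.

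**Figure D2:**
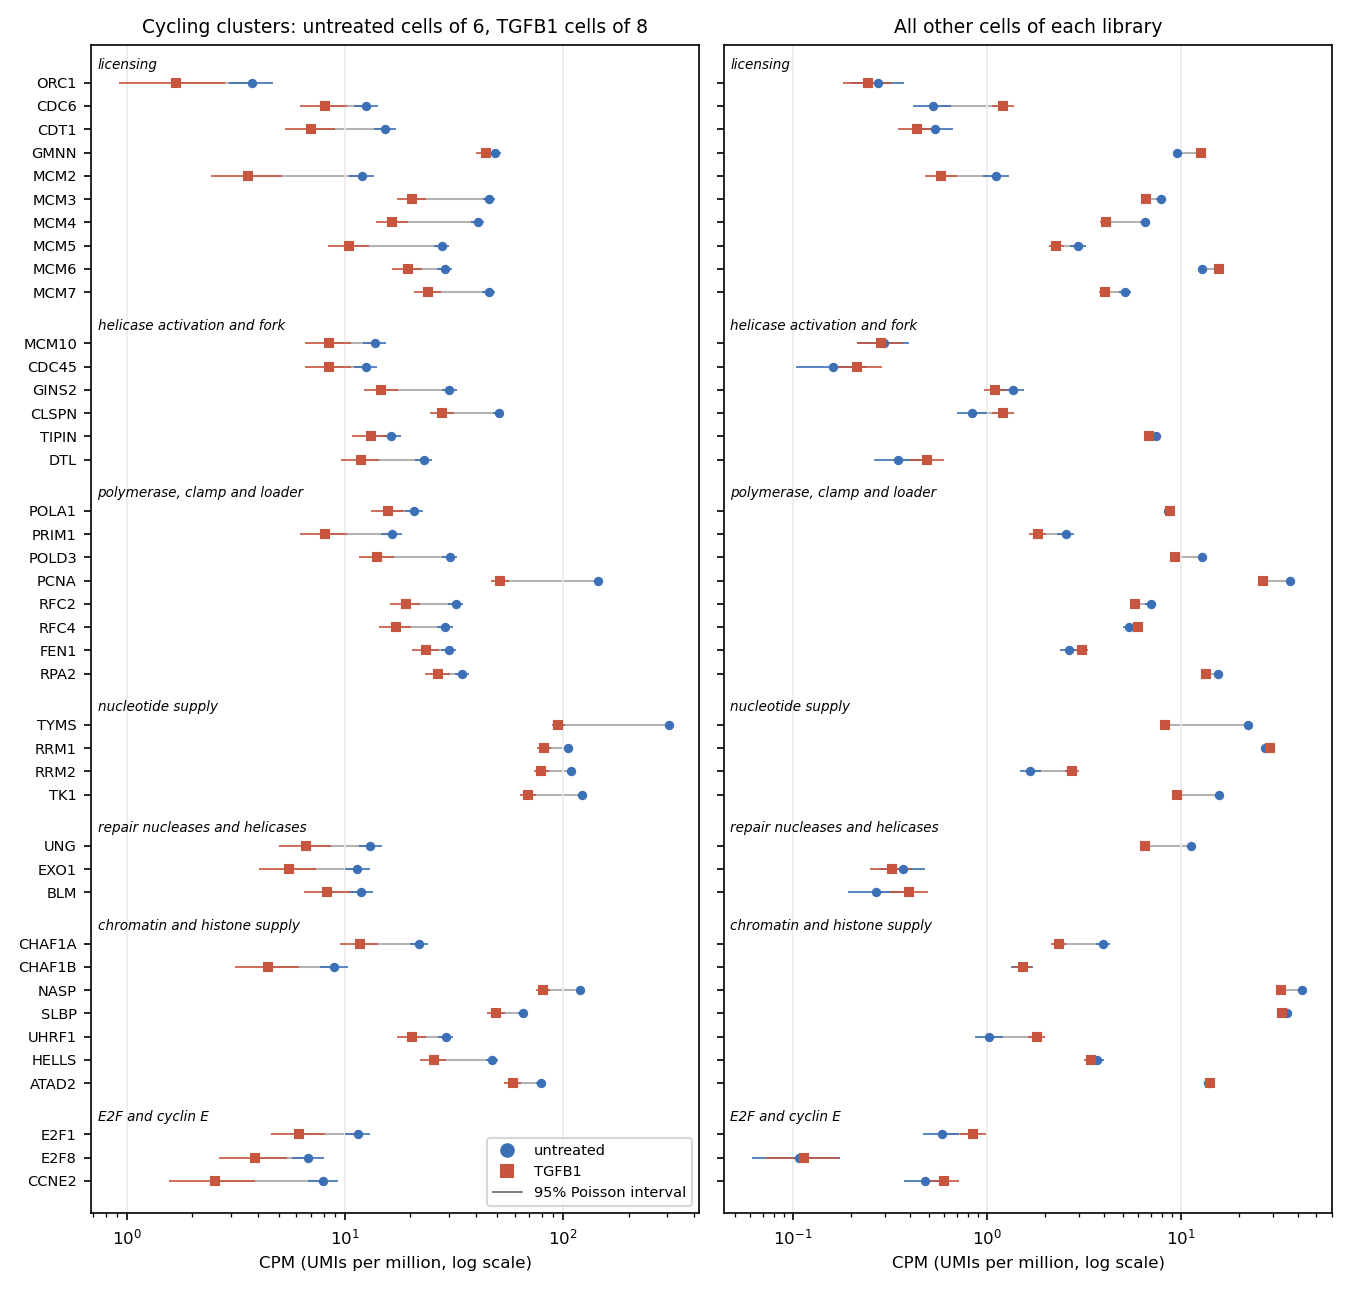
CPM of the 41 genes in the cycling clusters (left; untreated cells of cluster 6, circles; TGFB1 cells of cluster 8, squares) and in all other cells (right), on log axes with 95% Poisson intervals. The squares lie left of the circles for all 41 genes in the cycling clusters, and on the right they lie on either side.

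Outside the cycling clusters most of the 41 genes were near level. There 6 were lower, against 13.1% of 10824 genes, 3 were higher, against 8.92%, and 32 lay within 1.5-fold. Those shares are over genes at 5 CPM or more. Of the 19 members at that level 4 were lower and none was higher, with a median log2 ratio of -0.26, and the 3 higher ones were all under 5 CPM. Over all 41 the median log2 ratio was -0.10, against -0.08 over all genes, but it was 0.024 under TMM and 0.067 under the median of ratios. These scalings gave 5 lower and 7 higher, and 4 lower and 7 higher, while over all genes they moved 1421 lower and 966 higher to 1051 and 1260, and to 940 and 1392. With both clusters left out in each library 8 genes were lower, against 13.2%, and 2 were higher, against 8.91%. A count this close to the share over all genes says little of the group, and the description rests on single genes.

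TYMS was the clearest of these. It was at 22.3 CPM in untreated and 8.24 CPM in TGFB1 cells outside the cycling clusters, 2.71-fold lower (2.55 to 2.87). UNG was at 11.3 and 6.503 CPM, 1.74-fold lower (1.62 to 1.87), nearly the same as in the whole libraries. UNG was also not a marker of the cycling clusters, since its level in cluster 6 was 13.1 CPM and that in cluster 9 of the same library 14.2 CPM. TK1 was at 15.7 and 9.53 CPM, 1.64-fold lower (1.55 to 1.75). MCM2, CHAF1A and MCM4 were 1.91-, 1.69- and 1.60-fold lower. Of the 3 higher genes, CDC6 was at 0.525 CPM untreated and at 1.21 CPM with TGFB1, a ratio of 2.31 (1.78 to 3.02). UHRF1 was at 1.03 and 1.80 CPM, a ratio of 1.75 (1.45 to 2.13), and RRM2 at 1.67 and 2.76 CPM, a ratio of 1.65 (1.41 to 1.92). The 21 TGFB1 cells of cluster 6 held 29 of the 243 CDC6 UMIs, 35 of the 362 UHRF1 UMIs and 87 of the 553 RRM2 UMIs counted there, and the 30 untreated cells of cluster 8 held 8 RRM2 UMIs. With both clusters left out in each library CDC6 was at 0.525 and 1.07 CPM, UHRF1 at 1.03 and 1.63 CPM, and RRM2 at 1.62 and 2.33 CPM, which is within 1.5-fold. GMNN and MCM6 were also above their untreated levels in these cells, within the limit, with ratios of 1.32 (1.23 to 1.41) and 1.23 (1.16 to 1.30).

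In the clusters other than the cycling ones the summed level of the 41 genes lay between 271 and 336 CPM in 4 untreated clusters and between 255 and 343 CPM in 8 TGFB1 clusters of at least 50 cells. Single genes varied more among these clusters. TK1 ran from 2.19 CPM in cluster 7 to 17.3 CPM in cluster 2 of the untreated library, and from 2.76 CPM in cluster 7 to 21.5 CPM in the 56 cells of cluster 1 of the TGFB1 library, with 20.4 CPM in the 2543 cells of cluster 3. TYMS ran from 10.7 to 22.9 CPM untreated and from 5.74 to 25.96 CPM with TGFB1, lowest in clusters 7 and 4 and highest in cluster 1 of each library. The cycling cluster had the highest level of its library for 40 of 41 genes in the untreated and 39 of 41 in the TGFB1 library. The exceptions were UNG in both and POLD3 in the TGFB1 library, where cluster 8 was at 14.1 CPM and cluster 1 at 15.2 CPM. How far a gene was held by the cycling cells varied widely. In the untreated library 91.3% of CDC45 UMIs, 90.0% of DTL UMIs and 89.9% of RRM2 UMIs came from cluster 6, which held 12.0% of all UMIs, against 13.6% for UNG and 20.3% for SLBP. In the TGFB1 library cluster 8, with 3.97% of UMIs, gave 61.9% of CDC45 UMIs, 54.5% of RRM2 UMIs, 5.82% of SLBP UMIs and 4.04% of UNG UMIs. UMIs of these genes outside the cycling clusters may come from RNA free in the droplets, and no cell type of these libraries was known to lack the genes, so this was not tested.

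**Figure D3:**
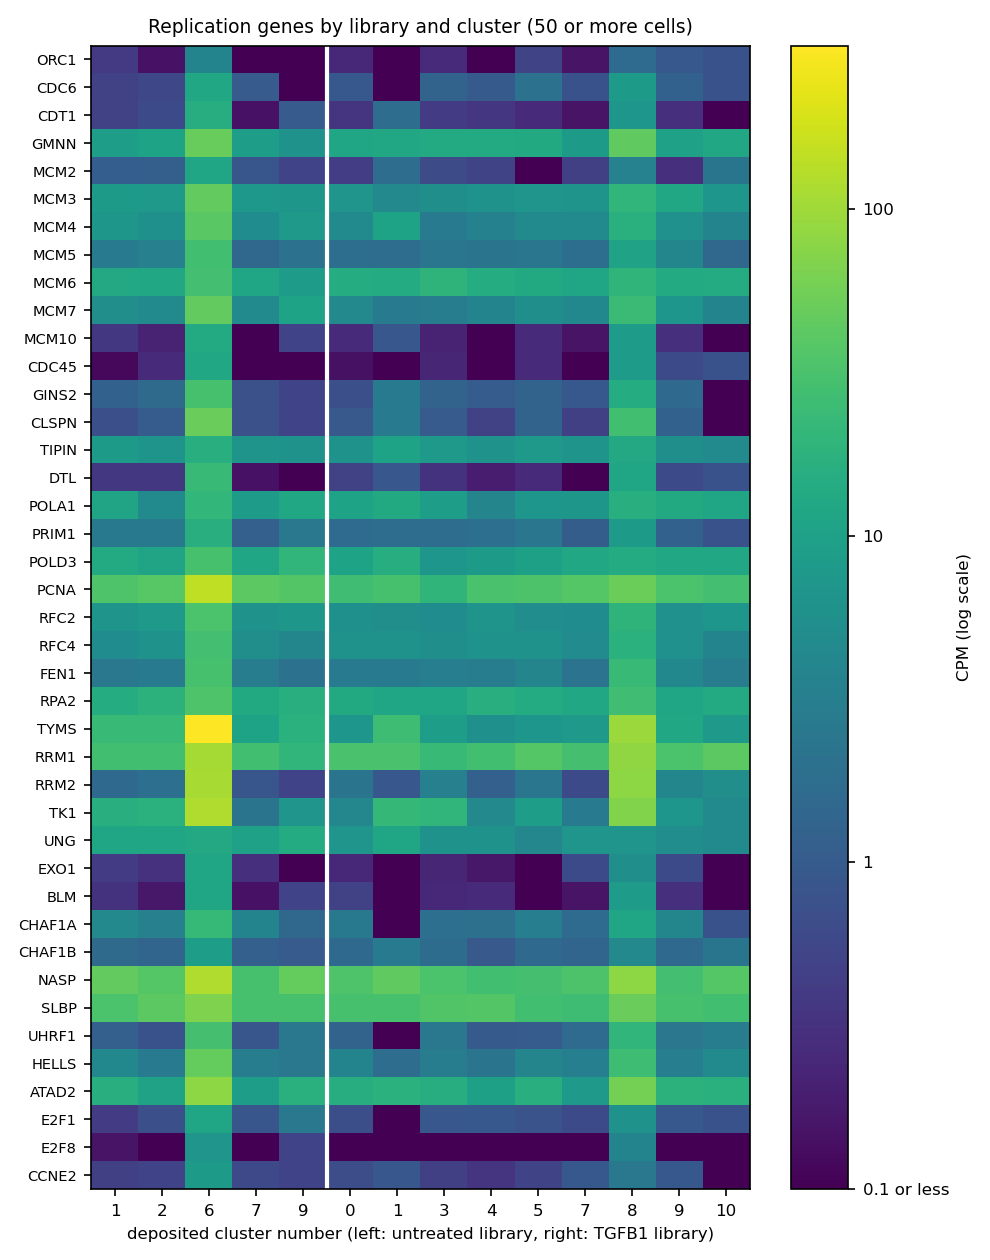
CPM of each of the 41 genes (lines) in every deposited cluster of at least 50 cells (columns), with untreated clusters on the left and TGFB1 clusters on the right and colour on a log scale. Columns 6 (untreated) and 8 (TGFB1) are brightest for nearly all genes, and UNG is about as bright in the other columns.

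The library difference was then split by arithmetic into the change in the cycling cluster's share of UMIs, in the level within it and in the level in all other cells, each taken at the mean of both libraries. The 41 genes summed to 513 CPM untreated and 310 CPM with TGFB1, a difference of -203 CPM. Of this 44.8% went with the share of UMIs in the cycling cluster, 32.2% with the level within it and 23.0% with the level in other cells. Abundant genes weighed most in this sum, and TYMS alone differed by -44.8 CPM. Of the -46.6 CPM from other cells, TYMS gave -12.9, PCNA -9.44 and NASP -8.62 CPM. Some genes went the other way there, such as GMNN at 2.79 and MCM6 at 2.71 CPM. The split was made in CPM and was not repeated under TMM or the median of ratios. The G2 and M phase genes, with a difference of -466 CPM, were split 75.9%, 18.6% and 5.45%. With clusters 6 and 8 joined the parts for the 41 genes were 45.9%, 28.4% and 25.7%. When cells were thinned to 7500 UMIs, which left out the 455 and 3225 shallower cells, and classed by at least 3 G2 and M phase UMIs in place of clusters, the difference was -187 CPM and the parts were 32.1%, 44.3% and 23.6%. The order of the first 2 parts was thus reversed in that setting, which changed both the cells and the definition of cycling. Many of the cells so classed lay outside the cycling clusters. For the G2 and M phase genes the parts were 74.1%, 18.7% and 7.20% with clusters 6 and 8 joined. By G2 and M phase UMIs after thinning they were 53.0%, 41.5% and 5.48%. The split of these genes thus also moved with the definition of cycling.

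The split differed between roles. The level in other cells made up 61.0% of the difference for the repair genes, where UNG alone had 88.2% of its own difference there. It made up 36.1% for the polymerases, clamp and loaders and 21.3% for nucleotide supply. It was 2.24% for the fork genes and -1.88% for licensing. In each of these roles the parts of single genes had opposite signs. For the repair genes UNG gave -4.44 CPM and the sum was -4.37 CPM. Among licensing genes the part from other cells was 2.79 CPM for GMNN and 2.71 CPM for MCM6, and it was -2.26 CPM for MCM4 and -1.20 CPM for MCM3. MCM4 had 37.3% of its own difference in other cells, and TIPIN, a fork gene, had 40.2%. For TYMS the parts were 33.4%, 37.8% and 28.8%, so its difference was spread over all 3. RRM2 had 84.5% in the share of cycling cells, with a part of -11.3% from other cells, and CDC45 had 75.1% in the share.

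**Figure D4:**
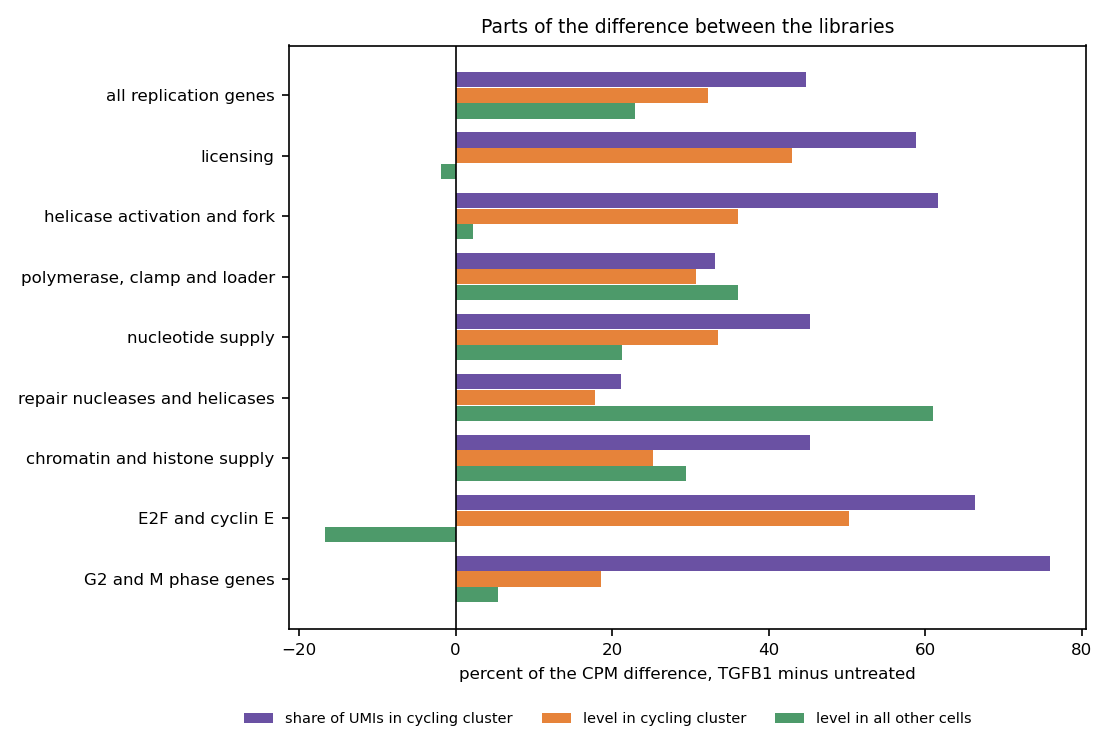
Percent of the CPM difference between libraries that went with the share of UMIs in the cycling cluster, the level within it and the level in other cells, for all 41 genes, each role and the G2 and M phase genes. The share bar is 75.9% for G2 and M phase genes and 44.8% for replication genes, and a negative bar marks a part that went the other way.

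The difference was also read cell by cell. After thinning to 7500 UMIs, 6.83% of untreated cells (6.27 to 7.42) and 1.19% of TGFB1 cells (0.980 to 1.43) had at least 10 UMIs of the 41 genes. At least 20 UMIs were found in 168 untreated cells, 2.20% (1.88 to 2.55), and in 27 TGFB1 cells, 0.289% (0.191 to 0.421). All of them lay in clusters 6 and 8. Of the 27 TGFB1 cells 12 were among the 21 of cluster 6 and 15 were in cluster 8. The median cell of either library had 2 such UMIs.

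Single genes differed at this depth. A TYMS UMI was found in 85.1% of untreated and 46.7% of TGFB1 cycling cells, and in 14.0% and 5.48% of other cells. For PCNA the shares were 52.9% and 27.3% of cycling cells, and 24.0% and 18.04% of others. An RRM2 UMI was in 46.1% and 48.0% of cycling cells, so that TGFB1 cycling cells held it as often. For MCM2 the shares were 7.41% and 3.13% of cycling cells. Without thinning TYMS was in 96.6% and 75.3% of cycling cells, and RRM2 in 72.0% and 75.3%.

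Cells of clusters 6 and 8 were finally classed by their G2 and M phase UMIs, which the 41 genes do not enter. The clusters themselves were made from all genes, these 41 included. The 41 genes thus helped to set which cells were compared, and the values are a description. In clusters 6 and 8 together, 824 untreated cells had a mean of 13.6 UMIs of the 41 genes (13.3 to 13.8) and 340 TGFB1 cells had 8.44 (8.13 to 8.75). In cells with 0 to 9 G2 and M phase UMIs the means were 9.45 untreated and 6.65 with TGFB1, and with 10 to 19 they were 12.1 and 7.02. With 20 to 39 they were 15.6 and 9.95, and with 40 to 79 they were 15.5 and 9.60. The untreated cells had more in each class, and the intervals of these classes did not overlap. In the class of 80 or more the means were 15.6 over 99 untreated cells and 8.89 over 9 TGFB1 cells. The share of these cells with at least 20 UMIs of the 41 genes was 20.4% untreated and 7.94% with TGFB1.

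**Figure D5:**
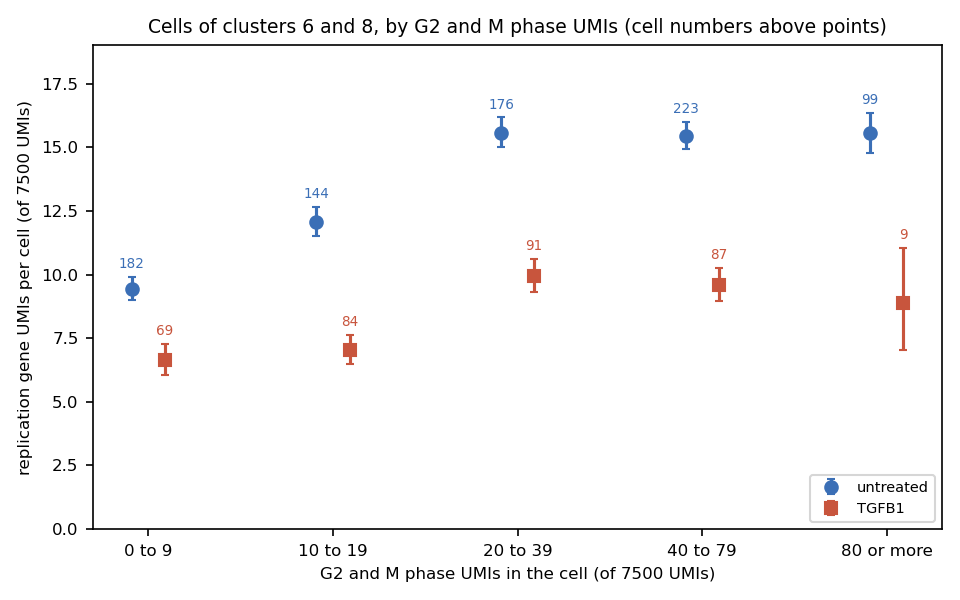
Mean UMIs of the 41 replication genes per cell in clusters 6 and 8, after thinning to 7500 UMIs, by the number of G2 and M phase UMIs in the cell, with 95% Poisson intervals and cell numbers above the points. Untreated cells (circles) lie above TGFB1 cells (squares) in all 5 classes.

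Other genes of the same pathways, from lists that hold none of the 41, were read the same way between libraries, where 14.2% of all genes at 5 CPM or more were lower and 8.45% higher. Of 45 further replication genes 21 were lower and none was higher, with a median of -0.56. Most of these 21 were under 5 CPM in both libraries, and of the 27 at or above it 5 were lower, with a median of -0.31. PRIM2, the large primase subunit, was at 167 CPM untreated and at 40.4 CPM with TGFB1, but the genome holds near-identical copies of it and its count is uncertain. FAM111A, a protease at stalled forks, was at 23.0 and 9.57 CPM, and ORC6 at 6.73 and 3.20 CPM. Of 22 recombination and checkpoint genes 11 were lower and none was higher, and of the 14 at 5 CPM or more 5 were lower, with a median of -0.38. Among them were WEE1, the kinase that restrains CDK1, at 29.8 and 11.6 CPM, RAD51AP1 at 7.63 and 2.73 CPM and FANCI at 9.63 and 4.25 CPM.

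The remaining lists were mixed. Of 25 further nucleotide synthesis genes 6 were lower and 3 higher, and of the 23 at 5 CPM or more 5 were lower and 3 higher, beside 14.2% and 8.45% of all genes. Among the higher ones PRPS1, which makes the ribose precursor, was at 51.2 and 140 CPM and CTPS1 at 15.7 and 41.9 CPM. PRPS1 and CTPS1 were higher in cycling cells as well, at 61.0 and 150 CPM and at 26.9 and 48.4 CPM. Of 24 further E2F and RB regulators 8 were lower (5 of the 19 at 5 CPM or more), such as FBXO5 at 11.3 and 5.33 CPM and CKS1B at 48.0 and 24.5 CPM, and 1 was higher, the repressor E2F7 at 6.62 and 11.9 CPM. E2F7 and its close relative E2F8, a member, thus differed in opposite directions. E2F7 outside the cycling clusters was at 4.39 and 11.2 CPM. Of 18 replication-dependent histones 8 were lower (4 of the 10 at 5 CPM or more), with H1-3 at 8.18 and 3.99 CPM and H2AX at 20.1 and 12.6 CPM, and H4C3 was higher at 63.3 and 99.1 CPM.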

How the data were processed

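The authors deposited a matrix of raw UMI counts per gene and cell (20656 cells), and a cell table with the library, the cluster number and per-cell counts of UMIs and genes, and the percent of mitochondrial UMIs. Per the submitters' processing notes, GRCh38 was the build and the tools included Seurat and Cell Ranger 9.0.1. The annotation and strand setting are not given in the sources used here. Matrix sums matched the cell table in each of the 20656 cells. No cell had fewer than 502 genes or a mitochondrial percent above 5.00. No doublet caller was run and any doublets were kept.

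From the counts, UMIs were summed over the cells of a library or cluster, for 169011524 UMIs untreated and 208991941 with TGFB1, and divided by the total to give CPM. A count of 0 in a library would allow 3 UMIs, or 0.0178 CPM untreated and 0.0144 CPM with TGFB1. Ratios have exact conditional binomial, sums exact Poisson and shares exact Clopper-Pearson 95% intervals, which cover counting error only. With 1 library per group no p-value was computed. Cells were thinned to 7500 UMIs without replacement to compare cells. TMM factors came from edgeR 4.0.16 and nothing was tested with it. Scripts ran in R 4.3.3 and Python 3.11.15 with pandas 2.3.3, scipy 1.17.1, matplotlib 3.10.9 and numpy 2.4.6, and were checked on simulated data.

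All 41 genes are named. Of other lists, up to 3 genes at 5 CPM or more with the largest absolute log2 ratio between libraries are named, and a few others were named after their values were seen. Not every gene picked by this rule is reported here. The 41 genes and the lists were chosen with earlier results of these data known. Promoters matched by symbol came from RefSeq, and for 31 of 34 the bases after the start lay in a GENCODE transcript of the gene. Named pseudogenes of PCNA, FEN1, RPA2, TYMS, RRM2 and UNG are not among the genes of the matrix, so shared reads could not be assessed. Alternatives were 2 other scalings, equal weight per cell, thinning, 2-fold as the limit, CPM minimums, a minimum of 1000 genes, leaving out clusters, and other definitions of cycling cells.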

Additional observations from a re-analysis of the deposited data

How the results depend on the processing

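No paired analysis was possible because each group has 1 library. Every direction below compares 2 libraries, so culture, handling and depth cannot be told apart from TGFB1.

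Under the alternatives that kept all 41 genes and the 1.5-fold limit, 26 to 31 were lower between libraries and 23 to 29 in the cycling clusters. Among all genes at 5 CPM or more, 1010 to 1599 were lower and 923 to 1396 higher between libraries. In the cycling clusters 1432 to 1957 of them were lower and 879 to 1135 higher. Of the 25 that reached 5 CPM in a library 15 were lower, with a median log2 ratio of -0.67, and at 20 CPM or more 3 of 7, with a median of -0.57. With a 2-fold limit 13 were lower in the cycling clusters, and at 20 CPM or more 15 of 26. In other cells 10 were lower after thinning, where 1488 of all genes at 5 CPM or more were lower and 998 higher. There 1 was lower with a 2-fold limit and 1 of 5 at 20 CPM or more, where the median was -0.36. No count over all genes was made for the 2-fold limit or the 20 CPM minimum. The median over other cells, -0.10, turned to 0.024 under TMM and 0.067 under the median of ratios. No single gene with a 1.5-fold difference turned direction.

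The cycling clusters held 12.0% of untreated and 3.97% of TGFB1 UMIs. The share of cells with G2 and M phase UMIs was 65.8% and 50.7% from 1 UMI, 11.2% and 5.08% from 5 UMIs, 13.9% and 7.02% after thinning to 5000, and 50.9% and 26.2% unthinned. The share with at least 10 replication gene UMIs was 3.96% and 0.447% after thinning to 5000, and 28.3% and 12.2% unthinned. The ratio to G2 and M phase UMIs in TGFB1 cells was 0.284 with clusters 6 and 8 joined. The parts of the difference from share, level in cycling cells and level in other cells were 45.9%, 28.4% and 25.7% with these clusters joined, and 32.1% and 44.3% for the first 2 by G2 and M phase UMIs after thinning. The untreated share was the higher in each of these settings. The cause of these moves was not tested.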
